A study of Zea mays with 18 samples.

Results

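The transcripts described here are those of the maize plastid genome, the small circular genome of the chloroplast. Of the 50118 genes in the deposited table, 179 lay on the plastid chromosome (Pt), and 94 of these had an FPKM above 0 in 3 or more of the 18 libraries and were taken as members. The 94 comprised 72 protein-coding genes, 11 tRNA genes, 5 rRNA genes and 6 intron features. FPKM is a read count divided by gene length and by the scale of the library. The study sequenced RNA from leaves of maize seedlings at the three-leaf stage, in the inbred line B73 and in a zmzfp69 line in the B73 background, after 0, 24 and 48 h at 4 °C. Each of the 6 groups had 3 biological replicates, and per the labels a replicate comprised 50 seedlings. The plants were raised at 25 °C. For every library the labels list a daily photoperiod of 16 h. The zmzfp69 line is called a mutant in the titles and a knock-down in the genotype field, and is called the mutant here; the labels do not describe its allele, and the targeted gene was not checked here. Groups follow the titles, since the description field of some mutant libraries at 24 and 48 h names 0 h. No library of unchilled leaves at 24 or 48 h was analysed here, so cold and elapsed time cannot be told apart.

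The plastid genome encodes core subunits of the photosystems, the cytochrome b6f complex, ATP synthase and the NADH dehydrogenase-like (NDH) complex, the large subunit of Rubisco, and part of the plastid's own ribosome and RNA polymerase. Its genes are transcribed, mostly as multi-gene operons, by a bacterial-type polymerase whose core is plastid-encoded and whose sigma factors come from the nucleus, and by nuclear-encoded phage-type polymerases. Plastid mRNAs do not carry the long stable poly(A) tails of nuclear mRNAs, and in chloroplasts the addition of adenine-rich tails is known as a step in RNA decay. The libraries were made from RNA purified on poly-T beads, so the values below are plastid RNA that passed this selection and not the whole plastid transcript pool. In leaf tissue as a whole, a change in the share of plastid-containing cells and a change in plastid RNA per cell cannot be told apart.

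The reads behind each FPKM value could be recovered as whole numbers, giving 14795794 to 19070464 reads per library. The members held 76889 reads in all, so most single genes were thinly sampled. 74 of the 94 had under 100 reads over the 18 libraries, 19 had under 10, 8 had over 1000, and 7 were detected in every library. Of the other 85 plastid genes, 55 had no read and 30 had reads in 1 or 2 libraries, 66 reads together. At the edge of the rule, the 10 members detected in exactly 3 libraries had 3 to 12 reads each, and the 13 genes detected in exactly 2 libraries, and so left out, had 2 to 7. Nuclear leaf genes were high in every library. Rubisco small subunit genes summed to between 1748 and 17838 FPKM in each library. The 9 genes matched to phosphoenolpyruvate carboxylase, not its C4 form alone, summed to between 1725 and 17392 FPKM. The kernel's zein genes summed to 65.8 to 151 FPKM. KNOX homeobox genes, known from the shoot meristem, summed to 135 to 2261 FPKM, and the highest of these sums exceeded the lowest sums of both sets of leaf genes.

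Plastid reads were a very small share of every library and were higher in all 12 chilled libraries than in any of the 6 libraries at 0 h. In B73 at 0 h the 3 libraries held 191, 146 and 299 member reads, or 0.00121%, 0.000841% and 0.00177% of the library. After 24 h these were 1132, 28428 and 5696 reads (0.00633%, 0.192% and 0.0321%), and after 48 h they were 2168, 10684 and 793 reads (0.0121%, 0.0584% and 0.00417%). In the mutant at 0 h the counts were 264, 221 and 248 (0.00154%, 0.00148% and 0.00149%). They were 4765, 697 and 704 at 24 h (0.0278%, 0.00365% and 0.00395%), and 15337, 4394 and 722 at 48 h (0.0961%, 0.0238% and 0.00487%).

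**Figure D1:**
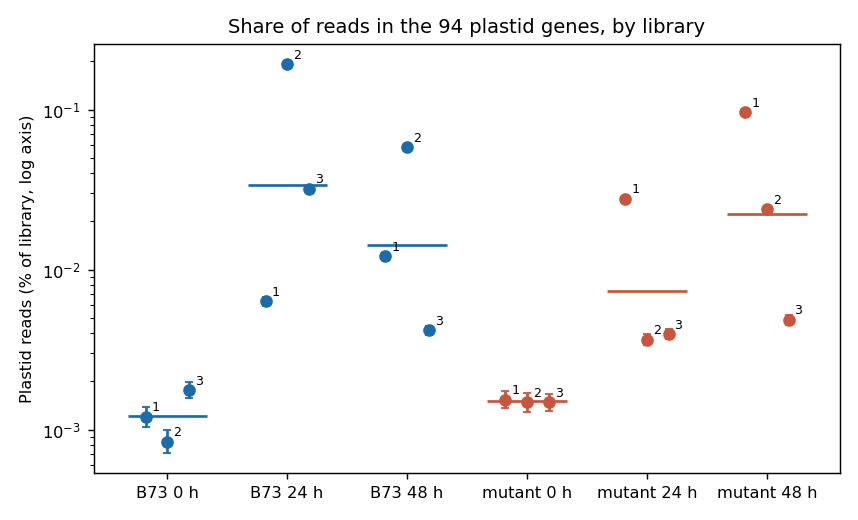
Share of each library's reads in the 94 plastid genes, on a log axis, for the 6 groups of 3 libraries. Points are libraries with their replicate number and exact (Clopper-Pearson) 95% intervals, which cover counting error only, and lines are geometric means; all 12 chilled libraries lie above the 6 libraries of 0 h, and the chilled libraries of a group lie far apart.

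The lowest chilled library had 2.07 times the share of the highest library at 0 h. Chilled libraries of the same group differed far more from each other than did libraries at 0 h. The highest share was 30.4 times the lowest in B73 at 24 h, 14.0 times in B73 at 48 h, 7.61 times in the mutant at 24 h and 19.7 times in the mutant at 48 h, against 2.10 times and 1.04 times in B73 and the mutant at 0 h. Of the 75520 member reads in chilled libraries, 37.6% came from B73 24 h replicate 2 and 72.1% from the 3 richest libraries, the others being mutant 48 h replicate 1 and B73 48 h replicate 2. The number of members detected rose with the reads, from 19 to 33 of 94 per library at 0 h to 32 to 88 in chilled libraries, and 36 members had no read in any library at 0 h.

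On the log2 scale, the mean share in B73 was higher than at 0 h by 4.80 at 24 h (pooled SD 1.78, n = 3 and 3) and by 3.56 at 48 h (pooled SD 1.41). In the mutant the differences were 2.30 at 24 h (pooled SD 1.17) and 3.89 at 48 h (pooled SD 1.52). Each exceeded the spread between libraries, and in each the groups did not overlap. Both times were set against the same 0 h libraries within a genotype. The difference in B73 at 24 h was 3.55 without B73 24 h replicate 2, and that in the mutant at 24 h was 1.34 without mutant 24 h replicate 1.

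Mutant and B73 overlapped at each time. The mean log2 share of the mutant less that of B73 was 0.31 at 0 h (pooled SD 0.38), -2.20 at 24 h (pooled SD 2.10) and 0.64 at 48 h (pooled SD 2.04). Without B73 24 h replicate 2 the difference at 24 h was -0.95, and without mutant 48 h replicate 1 the difference at 48 h was -0.41, the other direction. It was also below 0 without B73 48 h replicate 3 (-0.25).

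RNA classes other than nuclear mRNA were also read in these libraries. Reads of mitochondrial genes were 0.0328% to 0.103% of a library at 0 h and 0.0474% to 0.348% in chilled libraries, so that chilled libraries and libraries at 0 h overlapped. The 3 libraries of B73 at 48 h had the mitochondrial shares 0.326%, 0.348% and 0.176%, and those of the mutant at 48 h had 0.0610%, 0.0474% and 0.102%. Mutant 48 h replicate 1, second in plastid share, thus had a lower mitochondrial share than any library of B73 at 48 h. Within B73, mitochondrial shares at 48 h lay above those at 0 h (0.0332% to 0.0642%). The other comparisons with 0 h within a genotype overlapped. Of 61 mitochondrial genes, 3 and 18 were higher in B73 at 24 and 48 h at a limma adjusted p under 0.05, against 3.45% and 8.84% of all genes. In the mutant these counts were 0 and 4, against 2.61% and 13.5%. Reads of nuclear rRNA genes were 0.00239% to 0.00713% at 0 h and 0.0123% to 0.0384% in chilled libraries, without overlap. Nuclear tRNA genes took 0.00163% to 0.00214% and 0.00175% to 0.0105%, and nuclear small RNA genes 0.00428% to 0.00721% and 0.00173% to 0.0101%. The part of these classes in the plastid result was not tested.

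**Figure D2:**
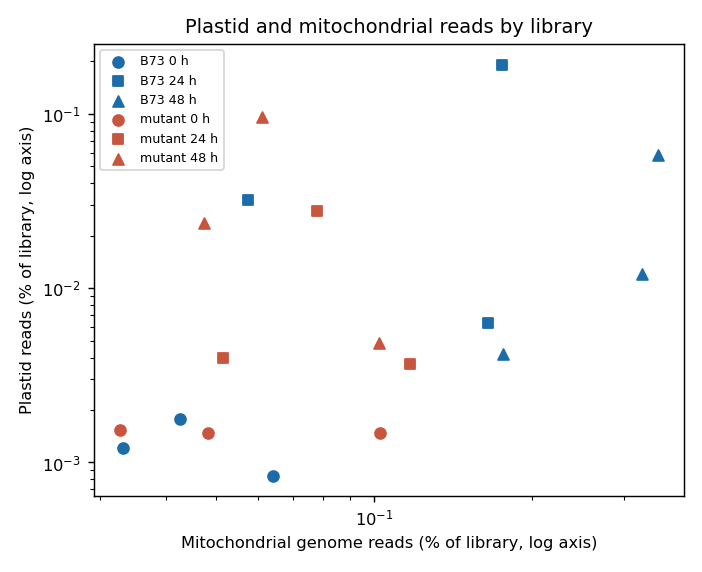
Share of reads in the 94 plastid genes (vertical, log axis) against the share in mitochondrial genes (horizontal, log axis), 1 point per library, coloured by genotype and shaped by time. Plastid shares of chilled libraries lie above those of 0 h. Mitochondrial shares of the 2 kinds of library overlap over both genotypes, but those of B73 at 48 h lie above those of B73 at 0 h.

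The make-up of the plastid reads varied among libraries, but each main class had overlapping shares at 0 h and after cold. The 6 members with most reads, namely 4 rRNA genes, matK and the lysine tRNA gene trnK, held 89.4% of all member reads. The rRNA members took 47.3% to 72.3% of plastid reads at 0 h and 38.2% to 75.6% in chilled libraries. The splicing factor gene matK took 11.5% to 28.6% and 12.1% to 39.1%. Genes for the photosynthetic complexes together, NDH and Rubisco included, took 4.84% to 24.1% and 4.51% to 39.5%.

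**Figure D3:**
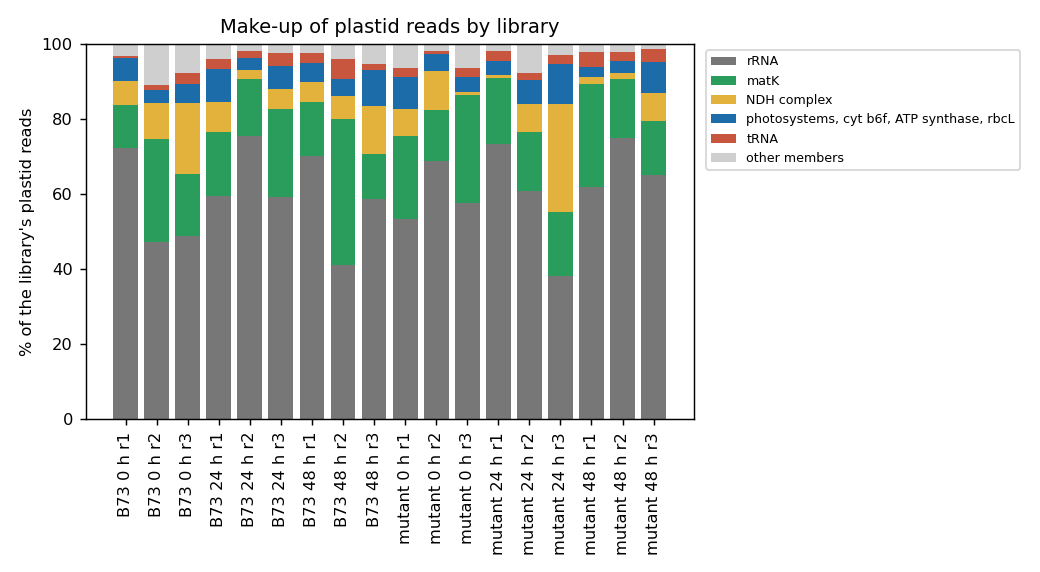
Make-up of the plastid reads of each of the 18 libraries, as percent of that library's member reads, by group of genes. In each library the rRNA genes and matK together hold more than any other group, and NDH genes stand out in mutant 24 h replicate 3.

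The rRNA genes, which encode the RNAs of the plastid ribosome, lie in a repeated region of the plastid genome, so most are listed once on each strand. ZemaCr120 (Pt, 126086 to 127576, minus strand, 1491 bases) had more reads than any other member, 26203. Its 3 libraries in B73 had 26, 9 and 36 reads at 0 h, 98, 14381 and 1299 at 24 h, and 440, 1567 and 109 at 48 h. The mutant libraries had 37, 43 and 31 at 0 h, 1909, 111 and 50 at 24 h, and 4734, 1110 and 213 at 48 h. Every chilled library was above every library at 0 h, and B73 24 h replicate 2 alone held more than all other libraries together.

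ZemaCr119 (120792 to 123675, minus strand, 2884 bases) varied less. It had 82, 45 and 87 reads in B73 at 0 h, 479, 2386 and 715 at 24 h, and 812, 2085 and 285 at 48 h. The mutant had 85, 85 and 83, then 949, 236 and 185, then 2348, 1107 and 199. Chilled libraries again lay above all those of 0 h, and with FPKM the limma difference from 0 h was 3.27 in B73 at 24 h (SE 0.86, adjusted p = 0.0353), 3.10 in B73 at 48 h (SE 0.86, adjusted p = 0.0243) and 3.41 in the mutant at 48 h (SE 0.86, adjusted p = 0.00933). All limma differences here are on the log2(FPKM + 1) scale, which understates those of low genes, with Benjamini-Hochberg adjustment over the 31855 genes tested. The call in the mutant at 48 h held with each of the 18 libraries left out in turn. In B73 it was lost at 24 h without any of B73 0 h replicates 1, 2 and 3 or 24 h replicates 2 and 3, and at 48 h without B73 0 h replicate 1 or 2 or 48 h replicate 1 or 2.

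The listed second copies of these genes had fewer reads. ZemaCr113 (95161 to 96651, plus strand), the copy of ZemaCr120, had 8717, and ZemaCr114 (99062 to 101945, plus strand), the copy of ZemaCr119, had 2927. The minus-strand copy thus held 75.0% and 80.7% of the reads of the pair. It was the higher of the pair in 17 of 18 libraries for ZemaCr120 and in 18 of 18 for ZemaCr119. Copies of the repeat are near-identical in plastid genomes and no source used here gives the rule for reads that match both, so the values of single copies are uncertain. The short rRNA gene ZemaCr115 (95 bases) had 6 reads.

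Among protein-coding members, matK stood far above the rest in reads and in level. It encodes a maturase that helps splice plastid group II introns, and lies (1674 to 3215, minus strand) inside the span of trnK (1386 to 3946). In B73 matK had 22, 40 and 49 reads at 0 h, 194, 4256 and 1345 at 24 h, and 317, 4179 and 96 at 48 h. In the mutant it had 58, 30 and 71, then 845, 109 and 120, then 4209, 684 and 104. Each chilled library exceeded each library at 0 h, on reads by least in B73 48 h replicate 3 and mutant 48 h replicate 3. In FPKM the nearest was mutant 24 h replicate 2, with 2.72 against 2.12 in mutant 0 h replicate 3. Only the mutant at 48 h passed the test (difference 3.95, SE 1.40, adjusted p = 0.0483), and this call held in 7 of 18 fits with 1 library left out. The other differences of matK were 4.33 in B73 at 24 h, 3.43 in B73 at 48 h and 1.74 in the mutant at 24 h (adjusted p = 0.0808, 0.109 and 0.498 by limma).

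As a share of protein-coding plastid reads, matK took 35.8% to 72.4% at 0 h and 28.7% to 80.0% in chilled libraries. The lysine tRNA gene trnK, whose exons sum to 72 bases, had 1943 reads and the highest mean FPKM of all members, 103, against 41.1 for matK. It had 0, 1 and 3 reads in B73 at 0 h, 11, 429 and 159 at 24 h, and 48, 510 and 12 at 48 h. The mutant had 6, 0 and 4, then 109, 4 and 11, then 532, 81 and 23. Within the mutant, the 24 h libraries overlapped those of 0 h, and the 48 h libraries did not. It rose in B73 at 48 h (difference 5.10, SE 1.60, limma adjusted p = 0.0416) and in the mutant at 48 h (5.57, SE 1.60, limma adjusted p = 0.0186). The first call held in 9 of 18 fits with 1 library left out, and the second was lost without mutant 0 h replicate 2 or mutant 48 h replicate 1. Because matK lies within trnK, reads of the unspliced precursor can fall in both.

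**Figure D4:**
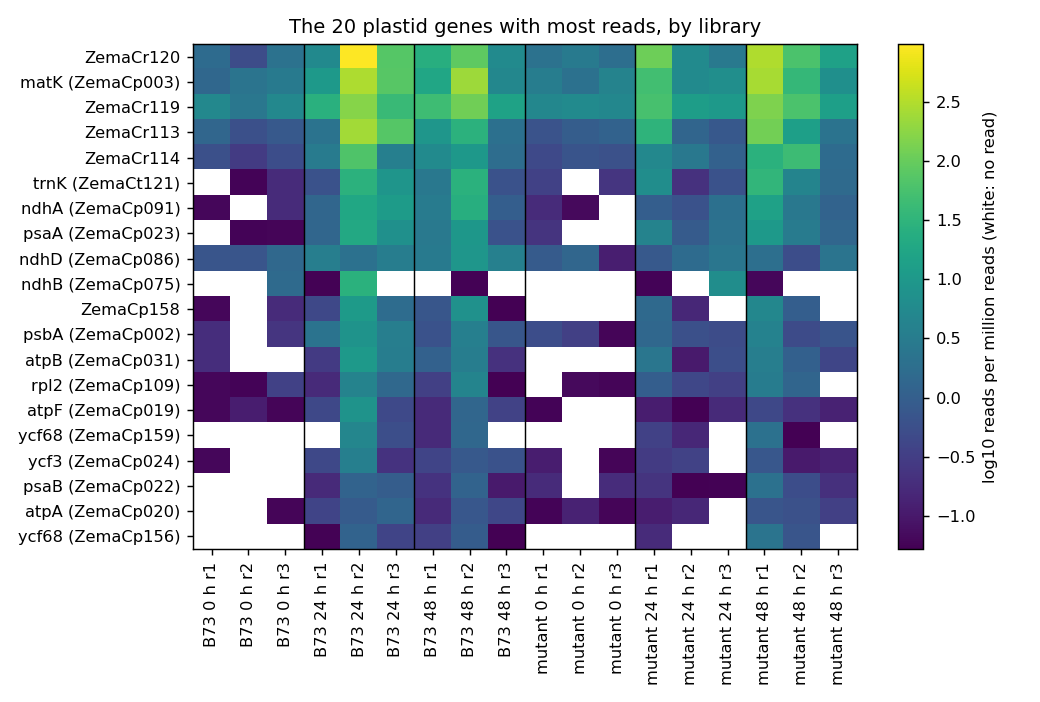
The 20 plastid genes with most reads in each of the 18 libraries, as reads scaled to the library's total on a log10 colour scale, with white for no read. The rRNA genes and matK are detected in every library, and most other genes are sparse at 0 h and fill in after cold, most of all in B73 24 h replicate 2.

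All 12 listed entries for genes of the NDH complex, which carries cyclic electron flow around photosystem I, were members, with 2836 reads in all. Each repeat copy of ndhB is its own entry. They ranged in mean FPKM from 0.0185 for ndhJ to 4.73 for ndhA. The subunit gene ndhA (114343 to 116454, minus strand) had 1, 0 and 3 reads in B73 at 0 h, 24, 267 and 207 at 24 h, and 56, 460 and 19 at 48 h. Mutant reads of ndhA were 3, 1 and 0, then 17, 12 and 35, then 234, 50 and 18. No chilled library overlapped a library of 0 h. It rose in the mutant at 48 h (difference 2.54, SE 0.90, limma adjusted p = 0.0484), a call held in 5 of 18 fits with 1 library left out. In B73 its differences were 2.89 at 24 h and 2.55 at 48 h (limma adjusted p = 0.0712 and 0.0668).

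Its neighbours in the same operon had few reads. Per length, ndhA was 51.7 times ndhH and 28.5 times ndhI in mean FPKM, and was above either gene in all 16 libraries with a read of the pair. These neighbours, with 28 and 23 reads, had no read at 0 h. At the far end of the operon, ndhD had 692 reads and a mean FPKM of 1.54.

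For ndhD, the library richest in plastid reads was not the highest. It had 11, 12 and 25 reads in B73 at 0 h, 63, 30 and 59 at 24 h, and 54, 165 and 73 at 48 h. Mutant reads were 15, 20 and 2, then 14, 31 and 44, then 30, 10 and 34. B73 chilled libraries lay above those of 0 h, mutant libraries overlapped, and B73 24 h replicate 2 was the lowest of its group. At 0 h ndhD took 2.04% to 29.9% of protein-coding plastid reads, and in the library richest in plastid reads it took 0.470%. It rose in B73 at 48 h (difference 1.62, SE 0.34, limma adjusted p = 0.00587), with each of the 18 libraries left out in turn. The mutant's difference at 48 h was 0.77 (SE 0.34, adjusted p = 0.110), and the difference between these changes did not pass (-0.85, SE 0.48, limma adjusted p = 0.743).

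Reads of ndhB came mostly from 3 libraries. The listed copy at 89236 to 91472 (minus strand) had 553 reads, of which 408 were in B73 24 h replicate 2, 114 in mutant 24 h replicate 3 and 27 in B73 0 h replicate 3. The copy at 131265 to 133501 (plus strand) had 41 reads. In the other 15 libraries the first copy had 0 or 1 read.

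Of the photosystem genes, 4 of 5 for photosystem I and 9 of 15 for photosystem II were members. The photosystem I core gene psaA (41352 to 43604, minus strand) had 0, 1 and 1 reads in B73 at 0 h, 24, 290 and 129 at 24 h, and 49, 173 and 12 at 48 h. In the mutant it had 4, 0 and 0, then 72, 17 and 38, then 171, 58 and 20. Chilled libraries did not overlap those of 0 h, and no difference passed the test (1.38 to 2.03 in B73 and 0.90 to 1.76 in the mutant, limma adjusted p from 0.0516 to 0.425). The partner core gene psaB, next in the operon and of similar length, had 124 reads against 1059. The mean FPKM of psaA was 8.27 times that of psaB. The third gene of that operon, rps14, had 2 reads and was no member.

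The reaction centre gene psbA (89 to 1150, minus strand) encodes the D1 protein of photosystem II, which is replaced often in the light and is counted among the most abundant mRNAs of leaf chloroplasts. Here it had 465 reads and a mean of 1.58 FPKM. It had 3, 0 and 4 reads in B73 at 0 h, 39, 122 and 63 at 24 h, and 11, 66 and 14 at 48 h. The mutant had 9, 5 and 1, then 24, 11 and 9, then 65, 9 and 10. On FPKM all chilled libraries lay above those of 0 h, and on reads the mutant's groups met at 9. It rose in B73 at 24 h (difference 2.15, SE 0.50, limma adjusted p = 0.0198), and the call was lost without B73 0 h replicate 1 or 2 or B73 24 h replicate 2 or 3. Its difference in the mutant at 24 h was 0.46 (SE 0.50), and the difference between genotypes in this change was -1.69 (SE 0.71, limma adjusted p = 0.704).

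Of the cytochrome b6f genes, which encode the complex between the photosystems, 5 of 6 were members, with 158 reads. The small subunit gene petG had 0, 0 and 1 reads in B73 at 0 h, 1, 9 and 1 at 24 h, and 1, 14 and 8 at 48 h, and 4 reads in all in the mutant. petD, for subunit IV, had no read at 0 h, and in B73 at 48 h it had 1, 12 and 9. Both rose in B73 at 48 h. The difference was 1.80 for petG (SE 0.57, limma adjusted p = 0.0436) and 0.82 for petD (SE 0.20, limma adjusted p = 0.0122). The petD call held with each library left out, and that of petG in 7 of 18 such fits. With no read at 0 h, petD qualified as a member through chilled libraries alone and could only be called higher.

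All 6 ATP synthase genes were members, with 874 reads. atpB, the catalytic beta subunit, had 3, 0 and 0 reads in B73 at 0 h, 5, 150 and 61 at 24 h, and 20, 62 and 4 at 48 h. Its groups did not overlap in either genotype, since the mutant had no read at 0 h and 2 to 56 reads in each chilled library. The partly overlapping neighbour atpE had 17 reads, and the mean FPKM of atpB was 7.29 times that of atpE. atpF had the highest mean FPKM of the complex, 1.34, and 121 of its 196 reads came from B73 24 h replicate 2. The alpha subunit gene atpA, with 105 reads, passed in B73 at 24 h (difference 0.63, SE 0.14, limma adjusted p = 0.0178) and in the mutant at 48 h (0.52, SE 0.14, adjusted p = 0.0148). Its reads were 0, 0 and 1 in B73 at 0 h and 7, 13 and 23 at 24 h, and 1, 2 and 1 in the mutant at 0 h and 11, 11 and 5 at 48 h. The B73 call was lost without B73 0 h replicate 1 or 2 or 24 h replicate 2 or 3, and the mutant call without mutant 48 h replicate 1.

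The gene for the large subunit of Rubisco, rbcL (56874 to 58304, plus strand), an abundant mRNA of leaf plastids, had 41 reads over the 18 libraries and a mean of 0.0999 FPKM. Its reads were 0, 0 and 3 in B73 at 0 h, 5, 11 and 5 at 24 h, and 1, 4 and 1 at 48 h, and 0 to 3 in each library of the mutant. No difference passed the test (smallest limma adjusted p = 0.0777). The nuclear genes of the small subunit, on the same FPKM scale, are given above.

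Genes of the plastid's own expression machinery other than matK and rRNA had low counts. Of 14 listed entries for proteins of the 30S ribosomal subunit, 12 were members (301 reads), and of 11 for the 50S subunit, 4 were (415 reads). Repeat copies of rps7, rps15, rps19, rpl2 and rpl23 are separate entries in these totals. rps18 and one copy of rps15, with 11 and 5 reads, passed in the mutant at 48 h with differences of 0.39 and 0.40 (limma adjusted p = 0.0227 and 0.0490). These calls rest on 6 and 3 reads at 48 h and none at 0 h, and held in 14 and 2 of 18 fits with 1 library left out. With no read at 0 h in either genotype, both entries qualified through chilled libraries alone and could only be called higher.

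rpl2, of the 50S subunit, had 296 reads, all in the listed copy at 138323 to 139807, with 0 to 6 reads in each library at 0 h. The copy at 82930 to 84414 had 0. Of the 4 genes of the plastid-encoded RNA polymerase, rpoA had 14 reads and rpoC2 9, rpoB had 1 read and was no member, and rpoC1 had 0 reads, which in each library allows up to 3 by counting error. ycf3, for assembly of photosystem I, had 131 reads, 53 of them in B73 24 h replicate 2. clpP, for a protease subunit, had 3.

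Of 42 listed tRNA entries, 11 were members, with 2278 reads, 1943 of them trnK. The 42 include a pseudogene, repeat copies and some second entries at the same positions, so they exceed the number of distinct genes. The phenylalanine tRNA gene trnF had 1 read at 0 h in B73, 13, 23 and 8 reads at 24 h and 3, 3 and 0 at 48 h. In the mutant it had 1 read at 0 h, 3 at 24 h, and 20, 16 and 0 at 48 h. It rose in B73 at 24 h (difference 3.37, SE 0.95, limma adjusted p = 0.0484) and in the mutant at 48 h (2.69, SE 0.95, adjusted p = 0.0480), although in the second comparison replicate 3 had no read. trnD, for aspartate, passed in B73 at 24 h with 2, 17 and 10 reads against 0, 0 and 2 (difference 2.40, SE 0.65, limma adjusted p = 0.0410). The 2 trnF calls and the trnD call held in 5, 3 and 9 of 18 fits with 1 library left out. An alanine tRNA gene, trnA (ZemaCp096), had 64 reads and trnS (ZemaCt123) 53. The open reading frame ZemaCp158 (123876 to 124025, minus strand), inside the span of that trnA, had 486 reads, 482 of them in chilled libraries.

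Across all members, most genes had a higher mean FPKM after cold, while few passed the test. Below, the sign counts, medians and counts of members that fell or did not overlap are a description, partly fixed by how members were chosen. 36 members had no read at 0 h and qualified through chilled libraries alone. Among the limma calls below, petD, rps18 and the called copy of rps15 are such members. Their calls could only be rises, and the shares of members called include them. A gene with no read in the 0 h libraries of its genotype cannot have a difference below 0. With 1 read in each chilled library of a group, such a gene lies above 0 h without overlap. 48 members in B73 and 56 in the mutant had no read at 0 h in their genotype. In B73 at 24 h, 90 of 94 differences were above 0 and 2 below, with a median of 0.49 against -0.01 over all 31855 genes. Of the 46 members with a read at 0 h in B73, 44 were above 0 and 2 below. 5 members rose (ZemaCr119, trnF, trnD, psbA and atpA) and 0 fell, or 5.32% of members higher against 3.45% of all genes tested (2.98% lower). In 31 members (33.0%) all 3 libraries were above all 3 of 0 h, against 13.7% of all genes. With limma-voom on recovered reads 10 members rose (3.92% of all genes). Leaving out any one of 3 libraries (replicates 1 and 2 of B73 at 0 h and replicate 2 at 24 h) left 0 calls. The count was 1 without B73 24 h replicate 3. Leaving out B73 0 h replicate 3, B73 48 h replicate 1, or mutant 0 h replicate 1 or 3 gave 3. Leaving out B73 48 h replicate 2 gave 9, and leaving out B73 24 h replicate 1 gave 20. All 6 groups share one estimate of the spread in these fits.

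In B73 at 48 h, 81 differences were above 0 and 5 below, with a median of 0.37 against -0.01. Of the 46 with a read at 0 h, 41 were above 0 and 5 below. 5 members rose (trnK, ZemaCr119, petG, ndhD and petD), again 5.32%, against 8.84% of all genes, and 0 fell (7.69% of all genes). No overlap with 0 h was found for 28 members (29.8%), against 15.7% of all genes. limma-voom called 10 (9.37% of all genes). The count was 2 without B73 0 h replicate 1 or 2. It was 3 without B73 48 h replicate 2, mutant 48 h replicate 2, or mutant 0 h replicate 1 or 3. Leaving out B73 24 h replicate 2 gave 8, and leaving out B73 48 h replicate 3 gave 9.

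In the mutant at 24 h, 71 differences were above 0 and 5 below (median 0.13 against -0.02), and of the 38 members with a read at 0 h in the mutant, 33 were above 0 and 5 below. No member was called by limma, against 2.61% of all genes higher and 4.41% lower; 1 member had an unadjusted p under 0.05, and limma-voom called 0 (7.83% of all genes). In 15 members (16.0%) the chilled libraries were all above those of 0 h, against 10.8% of all genes. At 48 h in the mutant, 83 differences were above 0 and 3 below (median 0.42 against -0.04), and of the same 38, 35 were above 0 and 3 below. 10 members rose, or 10.6% against 13.5% of all genes, and 0 fell (13.8% of all genes). They were trnK, ZemaCr120, matK, ZemaCr119, ZemaCr114, trnF, ndhA, atpA, rps15 and rps18. 23 members (24.5%) did not overlap 0 h, against 19.8% of all genes. limma-voom called 18 (13.5% of all genes). The count of 10 was 2 without mutant 0 h replicate 2 or mutant 48 h replicate 1, and 3 without mutant 0 h replicate 1 or 3. It was 6 without any one of B73 0 h replicates 1, 2 and 3, B73 24 h replicate 3, B73 48 h replicate 1 and mutant 24 h replicate 3, and 20 without mutant 48 h replicate 3.

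**Figure D5:**
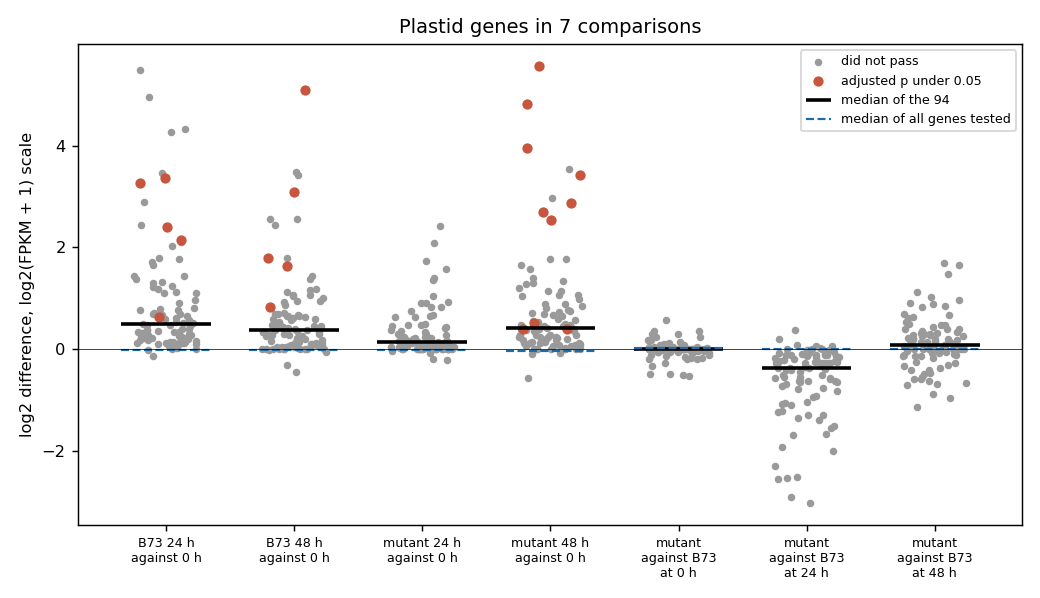
Differences of the 94 plastid genes in 7 comparisons, on the log2(FPKM + 1) scale. Points are genes, red where the adjusted p was under 0.05, black lines are the median of the 94 and dashed blue lines that of all genes tested; medians after cold are 0.49 and 0.37 in B73 and 0.13 and 0.42 in the mutant, and no gene passed between genotypes.

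Over both genotypes, 7 members had every chilled library above every library of 0 h in FPKM (ZemaCr120, matK, ZemaCr119, ndhA, ZemaCr114, psaA and psbA), or 7.45% against 2.3% of all genes. On reads scaled to library totals 5 of these did, without ZemaCr120 and psbA. No member was lower after cold at an unadjusted p under 0.05 in any of the 4 comparisons with 0 h. This count cannot show a one-way response. With no read at 0 h in their genotype, 48 members in B73 and 56 in the mutant could not be lower. Over all libraries at 0 h, 77 members had 5 or fewer reads, which leaves little room for a fall. The deposited FPKM values rest on a library scale that was at least 1.02 times the summed reads in each library at 0 h and 0.672 to 1.36 times in chilled libraries. Scaled to library totals instead, the median over all genes moved to -0.17 and -0.23 in B73 at 24 and 48 h and to -0.10 and -0.36 in the mutant. The members' medians were then 0.46, 0.35, 0.13 and 0.30, all above 0, and 6, 5, 0 and 4 members rose.

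Between genotypes, 0 members passed in limma at 0 h, 24 h or 48 h, against 0.308%, 0.37% and 0.336% of all genes in either direction. At an unadjusted p under 0.05 there were 0, 17 and 13, and limma-voom called 0 at each time (0.348%, 0.766% and 0.204% of all genes). At 24 h, 87 of 94 members were lower in the mutant (median -0.37 against 0.00 over all genes), and in 9 members (9.57%) all mutant libraries were below all of B73, against 5.97% of all genes. All members were measured in the same libraries, so these signs are not independent. Without B73 24 h replicate 2 the median was -0.12, and 5 members had an unadjusted p under 0.05 in limma in place of 17. The member nearest the threshold there was atpA (difference -0.58, SE 0.14, limma adjusted p = 0.117). Without B73 24 h replicate 1, 5 members were called at 24 h, and without mutant 48 h replicate 3, 1 was. At 48 h the median was 0.08, with 56 members higher and 37 lower in the mutant, and 2 and 3 members did not overlap (6.73% and 6.59% of all genes). That median was -0.04 without B73 48 h replicate 3 and -0.11 without mutant 48 h replicate 1. 2 members were called without mutant 48 h replicate 3, and 1 without B73 48 h replicate 1 or 3. At 0 h, 1 member did not overlap, against 8.49% of all genes.

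The change from 0 h also did not differ between genotypes for any member by limma, against 0.0722% of all genes at 24 h and 0.0471% at 48 h. 4 and 0 members had an unadjusted p under 0.05, and limma-voom called 0 (0.0439% and 0.0251% of all genes). Standard errors were wide. For matK the mutant less B73 difference was -2.30 at 24 h (SE 1.40) and 0.82 at 48 h (SE 1.40), and for ZemaCr120 it was -2.53 and 1.69 (SE 1.60).

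Nuclear genes that act on plastid transcription and RNA were tested as lists by name. Of the 7 sigma factor genes, which direct the plastid-encoded polymerase to promoters, 1 rose and 2 fell in B73 at 48 h (16.5% of all genes called), and 3 rose and 1 fell in the mutant (27.4%). Sigma factor 1B (Zm00001d049494) went from 35.8 ± 25.9 to 178 ± 68.3 FPKM in B73 (SD, n = 3; difference 2.43, SE 0.53) and by 2.42 (SE 0.53) in the mutant. Sigma factor sig2A (Zm00001d049160) and Sigma70-like-transcription factor 3 (Zm00001d028585), both annotated sigB, had differences of -1.98 and -1.55 in B73. In B73 and the mutant at 24 h, 0 and 1 sigma factor genes rose and 0 fell (6.43% and 7.03% of all genes called). The 1 in the mutant was 0 in 15 of 18 fits with 1 library left out, and 2 without mutant 24 h replicate 2.

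Of 14 tested genes of the plastid transcription machinery, 0 rose and 4 fell in B73 at 48 h, where 8.84% of all genes were higher and 7.69% lower. In the mutant at 48 h 0 rose and 3 fell, against 13.5% and 13.8% of all genes. The homolog of plastid transcriptionally active chromosome 10 (Zm00001d012141), a protein bound to the polymerase, had differences of -2.07 in B73 (SE 0.36) and -1.27 in the mutant. At 24 h, 2 fell in B73 (2.98% of all genes) and 1 rose in the mutant (2.61%). Of 30 tested genes of plastid RNA processing and decay, 1 rose and 5 fell in B73 at 48 h (8.84% and 7.69% of all genes), and 1 rose and 8 fell in the mutant (13.5% and 13.8%). Those that fell included a 31 kDa ribonucleoprotein gene (Zm00001d031969, -2.16 in B73 and -2.30 in the mutant) and the intron splicing factor gene crs2 associated factor1 (Zm00001d019573, -1.43 and -1.83). The gene that rose at 48 h, Zm00001d032426, is annotated as a chloroplast polyribonucleotide nucleotidyltransferase, an enzyme that degrades RNA, with differences of 1.25 (SE 0.40) and 1.77 (SE 0.40). This gene was named after its values were seen. At 24 h, 2 genes of this list rose in B73 and 1 in the mutant, each annotated ribonuclease II, and 0 fell (3.45% and 2.61% of all genes higher). With 1 library left out, these rises were 0 to 2 in both genotypes, and the falls of the machinery in B73 at 24 h were 1 to 2. With 1 library left out, the counts at 48 h in B73 were 1 to 2 higher and 0 to 2 lower for sigma factors, 0 higher and 2 to 5 lower for the machinery, and 0 to 2 higher and 3 to 8 lower for processing and decay. The 2 falls of sigma factors were lost without B73 48 h replicate 1, and the rise in processing and decay kept its count in 6 of 18 such fits. In the mutant at 48 h these counts were 2 to 3 and 0 to 1, 0 to 1 and 1 to 3, and 1 to 2 and 3 to 8. With library-total scaling, 7 genes of the machinery were lower in B73 at 48 h in place of 4. Between genotypes, 0 of the 51 tested genes of the 3 lists passed in limma or limma-voom at 0, 24 or 48 h, and 5, 7 and 5 had an unadjusted p under 0.05.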

How the data were processed

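The deposited table gives FPKM per gene and library, made by the authors from poly-T selected, directional libraries. Per the submitters' processing notes, the tools included featureCounts (1.5.0-p3), HISAT2 (2.0.5), DESeq2 (1.20.0) and fastp, with no roles given. No source used here gives the genome build, the use of strand or the treatment of reads that match several genes. Positions are those of the deposited table. Plastid symbols came from RefSeq locus tags, which matched 120 of 179 plastid genes and 72 of 94 members; others keep their ID.

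FPKM times gene length, divided by its smallest step in each library, gave whole reads for 100% of values (tolerance 0.01). Shares are recovered reads over all recovered reads, with exact Clopper-Pearson 95% intervals that cover counting error only. Genes with FPKM above 0 in 3 libraries (31855, all 94 members among them) were tested with limma 3.58.1 in R 4.3.3 (trend) on log2(FPKM + 1), by group means over 18 libraries with 12 residual degrees of freedom. Calls are at a Benjamini-Hochberg adjusted p under 0.05. The scripts were tested on simulated data. Alternatives were a pseudocount of 0.1, a filter of 1 FPKM, no filter, library-total scaling, a replicate block, limma-voom on recovered reads and leaving out each library. On recovered reads, limma-voom called 2107, 5307, 2494 and 8154 genes in the 4 comparisons with 0 h. The nuclear lists' alternatives were chosen after seeing the data.

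Members and lists were chosen with earlier results of these data known. Genes named are the 12 members of highest mean FPKM, the 3 most changed called members of each comparison, the highest of each functional list and the rRNA genes; others named were chosen after their values were seen. One gene that this rule takes is not reported here. For nuclear lists, they are called genes with the largest changes. Same-numbered libraries of different groups had correlated deviations above 0.1 in 13 of 45 pairs (range -0.47 to 0.53), so numbers were not taken to pair libraries. No plastid sequence was used here.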

Additional observations from a re-analysis of the deposited data

How the results depend on the processing

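The plastid shares kept the direction of their differences from 0 h under each alternative tried (other denominators, protein-coding members only, without ZemaCr120, each library left out). With 1 library left out, the log2 difference ranged from 3.55 to 6.01 in B73 at 24 h, 2.55 to 4.45 in B73 at 48 h, 1.34 to 2.80 in the mutant at 24 h and 2.84 to 4.99 in the mutant at 48 h. Between genotypes it ranged from 0.04 to 0.58 at 0 h, -3.41 to -0.95 at 24 h and -0.41 to 1.74 at 48 h.

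Counts of members called moved by more than 1.5 times under several settings. In B73 at 24 h the 5 became 10 with a pseudocount of 0.1, 3 with no filter and 10 with limma-voom, and 0 to 20 with 1 library left out. In B73 at 48 h the 5 became 10, 3 and 10 in the same settings, and 2 to 9. In the mutant at 48 h the 10 became 16, 6 and 18, 4 with library-total scaling, and 2 to 20. Between genotypes the count of 0 ranged from 0 to 5 at 24 h and from 0 to 2 at 48 h. The cause was not tested. The difference in plastid share between genotypes at 48 h changed sign without B73 48 h replicate 3 (-0.25) or mutant 48 h replicate 1 (-0.41), both moves within the spread between libraries. The members' median difference between genotypes at 48 h, 0.08 with all libraries, was -0.04 and -0.11 in the same fits. No called member's difference from 0 h changed sign in the alternatives tried.

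With replicate number as a block, 6, 6, 0 and 7 members were called in the 4 comparisons with 0 h, and 0 between genotypes. The numbers were not taken to pair the libraries. Depth limits most members: 74 of 94 had under 100 reads.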

Other observations

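Several genes of the repeated region had most of their reads assigned to one of their listed copies, and the favoured copy was not always the same one. The copy on the side of ZemaCr120 held 100% of the rpl2 reads (296 against 0), 95.5% of rpl23 (85 against 4), 92.0% of the open reading frame pair ZemaCp158 and ZemaCp157 (486 against 42), 75.3% of trnA (64 against 21) and 73.3% of rps7 (33 against 12). For ndhB it held 6.90% (41 against 553), and for ycf68 59.8% (153 against 103). Since the copies are near-identical, these shares describe how reads were assigned in the deposited table.

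Neighbours within other operons were also unequal in reads. In the psbB operon, psbB had 90 reads, psbT 0, psbH 27, petB 67 and petD 28. In the operon of rps2 and the ATP synthase genes, atpI had 67 reads, atpH 47, atpF 196 and atpA 105, or 0.355, 0.715, 1.34 and 0.252 in mean FPKM. The overlapping genes psbD and psbC had 53 and 52 reads.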
